A study of Mus musculus with 10 samples.

Results

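The comparison described here is Sox2Hi against control grafts in treated tumours, which uses 4 of the 10 neutrophil RNA-seq libraries of the series. Its members were chosen by the labels: every library from a tumour given anti-PDL1 with a CD40 agonist, 2 from Sox2Hi and 2 from control grafts. The control grafts were the parental squamous cell carcinoma cells with low Sox2, and the Sox2Hi grafts were carcinoma cells of the same kind with high Sox2. All hosts were CatchupIVM-red mice, which carry the red fluorescent protein Tomato linked to Ly6g, a neutrophil surface gene, and Tomato-positive neutrophils were taken from established tumours. Sample names carry the words C57 and, for control grafts, GFP. The labels give no age or sex, no dose or day of treatment, and no word on whether a line was 1 clone, and they do not say that libraries came from separate mice. The p-values therefore measure only the spread between these libraries. The other 6 libraries were from untreated (naive) tumours, 3 from each graft, and entered the fit to help estimate that spread. The series asks whether Sox2 in tumour stem cells lets them limit the answer of neutrophils to interferons.

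Neutrophils are short-lived white cells that leave the bone marrow loaded with granule proteins, calprotectin (S100a8 with S100a9) and receptors for bacterial peptides, and change their transcripts once inside tissue. In tumours they can take on a long-lived state marked by genes of lipid storage, lysosomal acid pumps and growth-promoting secreted proteins. Interferons bind their receptors on neutrophils and, through the transcription factors they activate, switch on antiviral genes, guanylate-binding proteins, antigen presentation and the checkpoint ligand PD-L1. PD-L1 blockade frees T cells that make interferon gamma, and a CD40 agonist activates antigen-presenting cells.

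Values per gene are counts per 1000000 scaled by library factors (scaled CPM), and differences are log2 values of Sox2Hi minus control from an edgeR quasi-likelihood fit on all 10 libraries. Calls were made below an adjusted p (Benjamini-Hochberg) of 0.05. The 4 treated libraries held 18927461 and 22986193 counts in control and 16019847 and 17861180 in Sox2Hi. Reads over olfactory and vomeronasal receptor genes, taken as silent in neutrophils, gave an expected background of 1.74% and 1.58% of counts in the control and 4.96% and 4.04% in the Sox2Hi treated libraries. The predicted gene Gm10800 moved with it, at 0.503% and 0.686% against 5.29% and 8.67% of counts, and 12 predicted genes in all were called at log2 differences from 3.26 to 3.53. The Tomato transcript was at 16.9 and 22.4 CPM in control and 27.7 and 13 CPM in Sox2Hi libraries, so it overlapped. Each treated graft had 1 library with reads from the Y-linked gene Ddx3y (6618 and 3980 counts) and 1 nearly without (8 and 7 counts), so the 2 libraries of a graft were not repeats of 1 RNA sample.

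The test covered 11274 genes whose mean CPM reached 5, of which 2353 (20.9%) were called. In Sox2Hi libraries 1691 (15.0%) were higher and 662 (5.87%) lower, and the median over all tested genes was 0.04. The grafts did not overlap in 6832 (60.6%) of the tested genes, 26.3% with Sox2Hi lower and 34.3% with Sox2Hi higher, so separate ranges alone were common. The split followed abundance and background. Of 5922 genes under 20 CPM, 21.7% were called higher and 1.86% lower, with a median of 0.33. In the 140 genes of 1000 CPM or more, 6.43% were called higher and 36.4% lower, with a median of -0.66. Receptor genes taken as silent were called higher in 195 of 265, and predicted, clone-named or unmatched genes in 609 of 1397. Among the 5596 other genes whose expected background was under 10% of their reads, 178 (3.18%) were called higher and 533 (9.52%) lower. With the expected background subtracted from each library, 960 of 9894 genes were called, 816 higher and 144 lower. Of 47 named genes with a call, 20 lost it in that fit. Its library factors and its set of genes were also computed anew. For an abundant gene a call lost there is therefore no measure of that gene's own background. Another scaling moved the split: RLE factors gave 994 higher and 1304 lower, library totals 2761 and 192, and scaling over 29648 genes 1240 (4.18%) and 2836 (9.57%). DESeq2 gave 1318 (11.7%) and 1823 (16.2%), and limma-voom 1344 (11.9%) and 439 (3.89%). The number of calls also hung on single libraries. Without control treated replicate 2 there were 468 calls, without Sox2Hi treated replicate 1 there were 465, and without the other treated libraries 1353 and 1347. Of all calls, 252 held in each fit that left out 1 treated library, 221 higher and 31 lower. Apart from predicted, receptor and high-background genes 39 held, 18 higher and 21 lower.

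**Figure D1:**
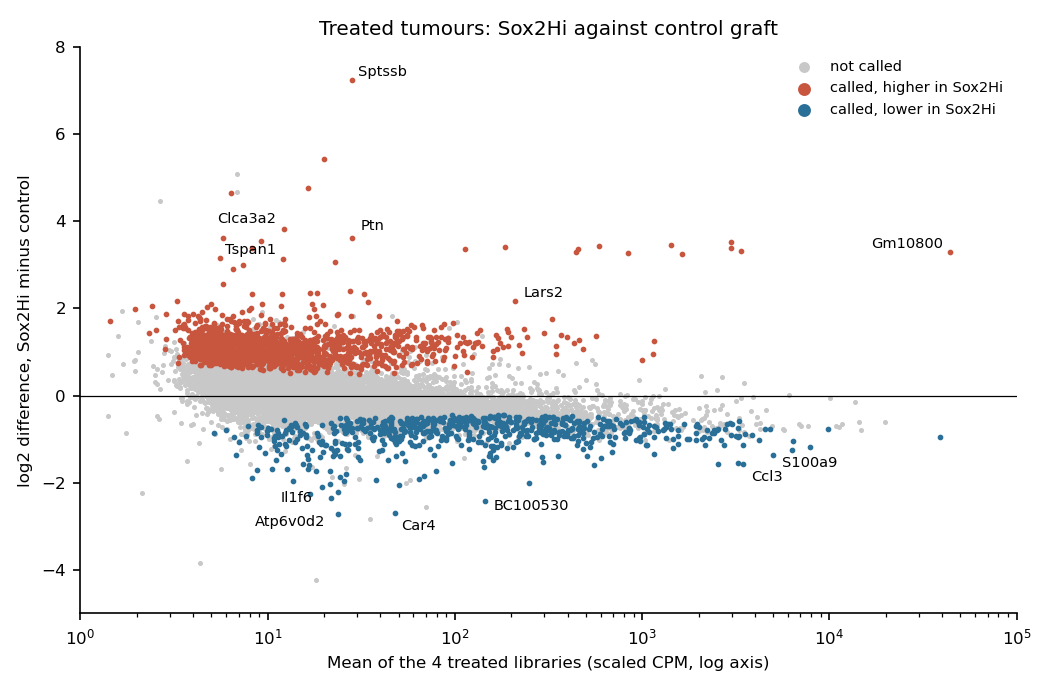
Each point is 1 gene, with the mean scaled CPM of the 4 treated libraries on a log axis and the log2 difference of Sox2Hi minus control on the vertical axis. Red genes were called higher and blue genes lower; 21 immunoglobulin genes lie outside the axes. Higher calls crowd the low end, a row of predicted genes ends in Gm10800 near log2 3.29, and lower calls take a growing share to the right.

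Of 30 listed genes of the mature neutrophil, 28 were tested, and 14 were called lower in Sox2Hi treated tumours, none higher and 14 not called, with a median of -0.86. Without Sox2Hi treated replicate 1 the list had 1 call, and it had 4 in each of the other 3 fits without 1 treated library and 4 after background subtraction. In the full fit 50% were called lower, against 22.9% of all genes weighted to the same abundance classes. S100a8, which pairs with S100a9 in calprotectin, was at 10200 and 7540 CPM in control and at 3830 and 3580 CPM in Sox2Hi libraries. Its partner S100a9 was at 7890 and 6520 CPM in control and 2890 and 2750 CPM in Sox2Hi. For both genes the Sox2Hi libraries lay close together and well below either control library. The differences were -1.26 (SE 0.33, edgeR adjusted p 0.025) for S100a8 and -1.35 (SE 0.31, edgeR adjusted p 0.016) for S100a9. Neither call held when any 1 treated library was left out, with edgeR adjusted p from 0.057 to 0.11 and from 0.053 to 0.083, while the differences stayed between -1.02 and -1.49. With the background subtracted they were -1.12 and -1.22 and also missed the threshold (edgeR adjusted p 0.083 and 0.052). In the Sox2Hi libraries only 4.22 and 3.83 of 60144 and 52513 S100a8 counts were expected as background. For S100a9 it was 3.17 and 2.88 of 45290 and 40319, so these shifts do not measure background in the 2 genes.

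Fpr1, the receptor for formylated bacterial peptides, was at 957 and 813 CPM in control and 355 and 295 CPM in Sox2Hi libraries. The groups did not overlap, and the difference of -1.44 (SE 0.28, edgeR adjusted p 0.0093) kept its call without each treated library. Its relative Fpr2 was at 592 and 633 CPM against 276 and 322 CPM, a difference of -1.03 (SE 0.25, edgeR adjusted p 0.018). That call was lost without Sox2Hi treated replicate 1 (-0.93, edgeR adjusted p 0.13) and without control treated replicate 2 (-0.99, edgeR adjusted p 0.080), and after background subtraction (-0.90, edgeR adjusted p 0.068). Also called in this list were BC100530, Stfa2 and Stfa2l1, cysteine protease inhibitors of the stefin A cluster on chromosome 16. BC100530 (36359382 to 36367748, minus strand, GRCm38) fell from 317 and 173 CPM in control to 57.6 and 33.4 CPM in Sox2Hi libraries. Stfa2 was at 44.1 and 37.5 CPM against 11.2 and 12.3 CPM, and Stfa2l1 at 495 and 382 CPM against 148 and 156 CPM. In each of these the lower control library was more than any Sox2Hi library. The differences were -2.43 (SE 0.55, edgeR adjusted p 0.015) for BC100530 and -1.80 (SE 0.34, edgeR adjusted p 0.0092) for Stfa2. Stefin A genes are near copies of each other, so the division of reads among them is uncertain. Stfa2 lost its call without Sox2Hi treated replicate 1 (edgeR adjusted p 0.063), and BC100530 held its call without control treated replicate 2 (edgeR adjusted p 0.044) but in none of the other 3 such fits. Stfa2l1 (-1.53, edgeR adjusted p 0.013) likewise held only without control treated replicate 2 (edgeR adjusted p 0.049).

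Other members called were Wfdc17, an antimicrobial-like secreted protein, at 11800 and 10200 CPM in control and 4430 and 5260 CPM in Sox2Hi, and Trem1, an amplifier of inflammatory signals, at 2900 and 3200 against 1550 and 1790 CPM. Their differences, -1.19 (edgeR adjusted p 0.032) and -0.87 (edgeR adjusted p 0.041), lost the call whichever treated library was left out (edgeR adjusted p 0.071 to 0.18 and 0.079 to 0.22), and after background subtraction (edgeR adjusted p 0.094 and 0.16). Il1r2, the decoy receptor for interleukin 1 and the most abundant of the list, was at 15300 and 19600 CPM in control and 11400 and 11400 CPM in Sox2Hi libraries without being called (-0.61, edgeR adjusted p 0.15). The receptors for the neutrophil growth factor and chemokines were not called either: Csf3r was at 317 and 188 against 196 and 180 CPM, and Cxcr2 at 591 and 401 against 425 and 320 CPM. For both, the ranges of the grafts overlapped. Ly6g itself was at 17.8 and 11.4 CPM in control and 10.3 and 5.8 CPM in Sox2Hi libraries (-0.85, edgeR adjusted p 0.13), with no overlap.

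Of 25 granule genes, 18 were tested and 3 were called lower: Mmp8, a collagenase of specific granules, Slpi, an inhibitor of neutrophil elastase, and Olfm4. Their share, 16.7%, was near the 14.6% of all genes of like abundance. Mmp8 was at 652 and 373 CPM in control and 191 and 198 CPM in Sox2Hi libraries (-1.40, SE 0.45, edgeR adjusted p 0.047), and Slpi at 2140 and 2480 against 980 and 1350 CPM (-0.99, SE 0.29, edgeR adjusted p 0.036). Neither range overlapped, and both calls were lost in all 4 fits without 1 treated library. After background subtraction 0 genes of the list were called by edgeR (adjusted p 0.13 for Mmp8 and 0.12 for Slpi). Lysozyme (Lyz2) was at 4180 and 4150 CPM in control and split in Sox2Hi, at 1580 and 3260 CPM (-0.78, edgeR adjusted p 0.15). It was called without Sox2Hi treated replicate 2 (-1.40, edgeR adjusted p 0.047). Anxa1 had no steady direction, at 2310 and 3980 against 4410 and 3250 CPM.

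The labelled cell type was checked with 20 neutrophil markers. All were tested and had values below 0. Of the 20, 8 were called lower (40%, beside 20.7% of genes of like abundance), and 1 after background subtraction. Each fit without 1 treated library called 1 of them, limma-voom 2 and DESeq2 13. Together they made up 3.50% and 3.31% of counts in control and 2.44% and 2.08% in Sox2Hi treated libraries. Several of them also sit in the lists above, so the counts are not separate evidence. In bulk RNA, fewer neutrophils among the sorted cells and less of these transcripts in each neutrophil cannot be told apart.

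All 30 listed genes of tumour-conditioned neutrophils were tested. In Sox2Hi libraries 13 were called lower, none higher and 17 not called, 5 were above 0, and the median was -0.78. Of all genes called lower, Atp6v0d2 and Car4 had the largest falls apart from 3 immunoglobulin genes. The share called lower was 43.3%, beside 17.6% of all genes of like abundance. After background subtraction 5 were called lower, Atp6v0d2 and Car4 among them (edgeR adjusted p 0.019 and 0.022). Atp6v0d2 (chromosome 4, 19876841 to 19922605, minus strand, GRCm38), a subunit of the vacuolar proton pump that acidifies lysosomes, was at 52.9 and 29.2 CPM in control and 6.95 and 5.52 CPM in Sox2Hi libraries. The lower control library was above both Sox2Hi libraries. The difference of -2.72 (SE 0.47, edgeR adjusted p 0.0076) held in every fit without 1 treated library, from -3.08 to -2.23. Car4 (chromosome 11, 84957786 to 84966044, plus strand, GRCm38), a membrane carbonic anhydrase, was at 103 and 63.5 CPM in control and 9.56 and 16 CPM in Sox2Hi. No Sox2Hi library came near a control library, and the difference was -2.70 (SE 0.48, edgeR adjusted p 0.0082). Without Sox2Hi treated replicate 1 it was -2.38 and just missed the threshold (edgeR adjusted p 0.059).

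The chemokine Ccl3, which draws monocytes and T cells, was at 4540 and 5740 CPM in control and 1610 and 1850 CPM in Sox2Hi libraries. Its neighbour Ccl4 was at 4180 and 3470 CPM against 1360 and 1210 CPM. Spp1, or osteopontin, was at 4050 and 5620 CPM against 1300 and 2020 CPM. In all of these every Sox2Hi library lay below every control library. Their differences were -1.57 (SE 0.38, edgeR adjusted p 0.018), -1.58 (SE 0.41, edgeR adjusted p 0.024) and -1.55 (SE 0.33, edgeR adjusted p 0.013). Without single treated libraries Ccl4 lost its call each time (edgeR adjusted p 0.068 to 0.11) and after background subtraction (edgeR adjusted p 0.060), Ccl3 kept it without control treated replicate 1 only (edgeR adjusted p 0.041), and Spp1 lost it without control treated replicate 2 (edgeR adjusted p 0.070) and without Sox2Hi treated replicate 1 (edgeR adjusted p 0.094). Il1a, an alarm cytokine, was at 3880 and 3610 against 1710 and 1700 CPM (-1.14, SE 0.25, edgeR adjusted p 0.013), and its call held only without control treated replicate 1 (edgeR adjusted p 0.048). Hilpda, a lipid droplet protein, was at 934 and 1240 against 495 and 717 CPM (-0.85, edgeR adjusted p 0.033), and lost its call without control treated replicate 2 and Sox2Hi treated replicate 1 (edgeR adjusted p 0.18 and 0.24), and after background subtraction (edgeR adjusted p 0.12). Siglecf, a marker of long-lived tumour neutrophils, was low in all: 5.78 and 8.58 CPM in control and 10.7 and 6.82 CPM in Sox2Hi libraries, which overlapped. Ptgs2, the inducible enzyme of prostaglandin synthesis, was at 980 and 1110 against 1060 and 845 CPM and Vegfa at 20.1 and 25.4 against 25.7 and 29.2 CPM, and neither was called. The list had 1 call without Sox2Hi treated replicate 1 and 4 without control treated replicate 2, while 8 were called in each of the other 2 fits.

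Further large falls came from genes in no list. Il1f6, an interleukin 36 cytokine, was at 29.6 and 43.3 CPM in control and 5.23 and 9.14 CPM in Sox2Hi libraries. Prok2, a chemotactic peptide of neutrophils, was at 147 and 97.6 against 28.2 and 45 CPM. Irf2bpl, a nuclear protein named for its likeness to a partner of IRF2, was at 84.3 and 119 against 22.1 and 31.9 CPM, and Tmem151a, a membrane protein, at 58.2 and 103 against 16.4 and 22.6 CPM. None of these overlapped between grafts. Irf2bpl (-1.91, SE 0.27, edgeR adjusted p 0.0065) and Tmem151a (-2.05, SE 0.32, edgeR adjusted p 0.0068) kept their calls without each treated library, as did Tgm4, a transglutaminase (-1.73, SE 0.26, edgeR adjusted p 0.0068). Il1f6 (-2.34, edgeR adjusted p 0.011) lost its call without control treated replicate 2 and Sox2Hi treated replicate 1 (edgeR adjusted p 0.058 and 0.082), and Prok2 (-1.74, edgeR adjusted p 0.020) kept it only without Sox2Hi treated replicate 2 (edgeR adjusted p 0.043) and lost it after background subtraction (edgeR adjusted p 0.054). Prl2c2 and Prl2c3, prolactin-family hormones that are near copies, were at 51.6 and 26.3 against 7.27 and 9.48 CPM and at 39.4 and 24.1 against 5.93 and 8.87 CPM. Reads may be shared between them, so the pair is best read as 1 signal, and it was lower in both Sox2Hi libraries. Prl2c2 (-2.22, edgeR adjusted p 0.0083) lost its call without Sox2Hi treated replicate 1 (edgeR adjusted p 0.060), and Prl2c3 (-2.10, edgeR adjusted p 0.026) in each of the 4 fits (edgeR adjusted p 0.058 to 0.17).

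**Figure D2:**
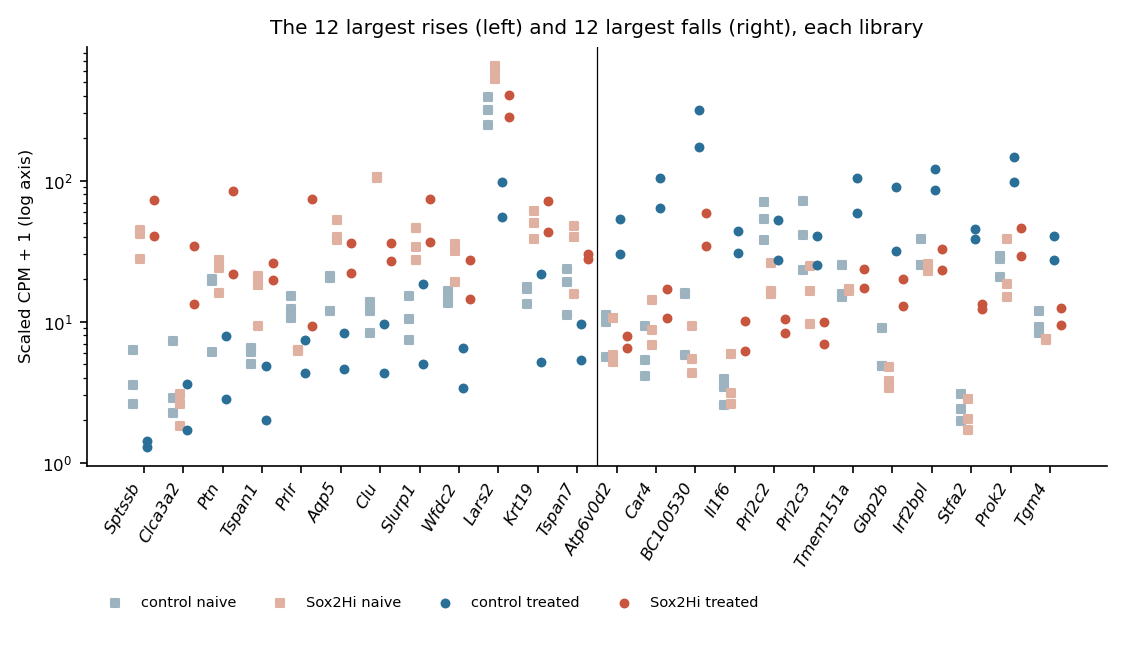
Scaled CPM plus 1 (log axis) of 24 genes, the 12 highest and 12 lowest log2 differences by the naming rule, 1 point a library; squares are naive and circles treated tumours, blue control and red Sox2Hi. On the right every red circle lies below every blue circle, and on the left above it, as the rule for naming them required; Sptssb spans 0.298 to 71.8 CPM, while Prlr has 1 high Sox2Hi library at 73 CPM.

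Interferon genes are what the study's question turns on. In the treated tumours, 58 interferon-stimulated genes were listed, 57 were tested, and 12 were called lower and none higher in Sox2Hi, with a median of -0.59 and 56 of 57 negative. The 21.1% called lower stands beside 13.5% of all genes of like abundance. Of 44 interferon gamma targets, 40 were tested, and 9 were called lower and none higher, with a median of -0.46. Their 22.5% stands beside 18.7% of genes of like abundance, which is near the background, so the count by itself says little about these genes. With the expected background subtracted 3 of 56 interferon-stimulated genes and 2 of 40 gamma targets were called lower by edgeR, and none higher. Over all genes that fit called 144 of 9894 lower and 816 higher.

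The start regions of the named interferon genes are printed next, because interferon-stimulated response elements lie in such regions. Every interferon gene picked by the naming rule that has a RefSeq window is shown, whether called or not. Each is 100 bases out of the 250 upstream of a RefSeq transcript start in GRCm38.p6, written 5′ to 3′ on the gene's strand. Capitals mark every match to the core of the element, which is GAAA, any 2 bases, and GAAA again, or its reverse complement. Matches may overlap, as in Isg15. Of the genes called lower, Gbp2b, Ifi213 and B2m hold a match and Slfn1 and Ifitm1 do not. Of those not called, Ifit3, Ifit1, Isg15, Gbp2 and Cxcl10 hold one and Cd274, Irf7 and Cxcl9 do not.
Ifit3, chr19:34583345-34583444, plus strand: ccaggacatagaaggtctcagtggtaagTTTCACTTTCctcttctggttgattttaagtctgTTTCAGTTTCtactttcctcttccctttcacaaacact
Ifit1, chr19:34640749-34640848, plus strand: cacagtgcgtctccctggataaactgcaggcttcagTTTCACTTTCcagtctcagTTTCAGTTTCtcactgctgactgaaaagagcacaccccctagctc
Isg15, chr4:156200836-156200935, minus strand: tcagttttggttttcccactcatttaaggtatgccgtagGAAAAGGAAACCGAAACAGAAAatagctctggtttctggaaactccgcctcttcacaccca
Gbp2, chr3:142620559-142620658, plus strand: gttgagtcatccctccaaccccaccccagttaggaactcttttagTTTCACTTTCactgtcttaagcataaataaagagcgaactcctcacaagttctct
Cxcl10, chr5:92349040-92349139, minus strand: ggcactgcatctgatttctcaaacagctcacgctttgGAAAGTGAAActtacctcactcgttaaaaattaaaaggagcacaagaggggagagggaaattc
Gbp2b, chr3:142594665-142594764, plus strand: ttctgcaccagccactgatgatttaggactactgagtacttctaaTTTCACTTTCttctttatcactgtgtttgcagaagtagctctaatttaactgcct
Ifi213, chr1:173599291-173599390, minus strand: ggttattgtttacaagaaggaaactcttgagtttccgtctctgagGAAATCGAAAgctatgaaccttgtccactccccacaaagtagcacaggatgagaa
B2m, chr2:122147503-122147602, plus strand: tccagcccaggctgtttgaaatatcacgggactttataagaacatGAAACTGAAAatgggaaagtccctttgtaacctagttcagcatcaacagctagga
Slfn1, chr11:83116720-83116819, plus strand: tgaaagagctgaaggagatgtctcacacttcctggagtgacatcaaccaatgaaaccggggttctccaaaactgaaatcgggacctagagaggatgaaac
Ifitm1, chr7:140967976-140968075, plus strand: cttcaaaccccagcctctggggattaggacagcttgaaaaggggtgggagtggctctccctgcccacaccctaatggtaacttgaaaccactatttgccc
Cd274, chr19:29367338-29367437, plus strand: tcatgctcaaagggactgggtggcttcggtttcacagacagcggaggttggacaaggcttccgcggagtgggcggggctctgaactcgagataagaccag
Irf7, chr7:141266425-141266524, minus strand: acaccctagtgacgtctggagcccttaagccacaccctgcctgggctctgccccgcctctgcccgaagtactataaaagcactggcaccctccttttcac
Cxcl9, chr5:92328080-92328179, minus strand: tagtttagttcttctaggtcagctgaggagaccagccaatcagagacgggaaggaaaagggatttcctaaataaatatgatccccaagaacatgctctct

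The 250 bases upstream of the start held the motif in 3.46% of 27025 genes with a window and in 3.81% of the tested genes with one. It was present in 19 of 45 interferon-stimulated genes with a window (42.2%) and in 13 of 29 interferon gamma targets (44.8%). Within the interferon-stimulated list, 1 of 10 members called lower and 18 of 35 not called held it, and in the gamma targets 3 of 5 and 10 of 24. Over all genes with a window it stood in 4.77% of the 482 called lower and 2.75% of the 946 called higher. The gamma-activated core, TTC, any 3 bases and GAA, was found in 8.13% of all genes with a window, 8.51% of those called lower and 8.77% of those called higher. It stood in 11 of 29 gamma targets (37.9%), 0 of 5 called lower and 11 of 24 not called. In the interferon-stimulated list it stood in 5 of 45 (11.1%), 2 of 10 called lower and 3 of 35 not called. These are matches of letters only.

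Ifit3, an antiviral protein that binds viral RNA in a complex with Ifit1, was at 926 and 660 CPM in control and 473 and 307 CPM in Sox2Hi libraries. Ifit1 was at 840 and 874 against 509 and 572 CPM, and Isg15, a ubiquitin-like modifier, at 2570 and 3130 against 1380 and 1830 CPM. In all of them both Sox2Hi libraries were below both control libraries, yet none was called (edgeR adjusted p 0.062, 0.12 and 0.075, differences -1.02, -0.66 and -0.83). Cd274, which codes for PD-L1, the target of the antibody given, was at 1720 and 1240 CPM in control and 805 and 967 CPM in Sox2Hi libraries. Its difference of -0.74 (SE 0.24) just missed the threshold (edgeR adjusted p 0.052), and scaling over 29648 genes called it (edgeR adjusted p 0.0090). That scaling places the median of the 11274 genes at -0.41 rather than 0.04, and it called 39 of 58 interferon-stimulated genes and 26 of 44 gamma targets lower. Relative to the median of those genes the list medians were -0.63 and -0.50 under either scaling. They had to be alike, because a change of scaling moves all genes by nearly the same amount. That median is also not matched for abundance. Class medians weighted to the abundance of these lists were -0.20 and -0.31, beside list medians of -0.59 and -0.46.

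Of the interferon genes called, Ifi213, of the p200 family of DNA-binding proteins, was at 137 and 86.2 CPM in control and 53.5 and 46.3 CPM in Sox2Hi libraries. Xaf1, a promoter of cell death, was at 618 and 518 against 291 and 283 CPM. Both showed a gap between grafts and kept their calls without each treated library, at -1.16 (SE 0.23, edgeR adjusted p 0.0098) and -0.98 (SE 0.17, edgeR adjusted p 0.0072). Slfn1, a regulator of growth in the Schlafen family, was at 1630 and 1280 against 701 and 629 CPM, and Ifitm1, a membrane protein that blocks virus entry, at 3750 and 3320 against 1690 and 1770 CPM. These were called at -1.13 (SE 0.28, edgeR adjusted p 0.021) and -1.03 (SE 0.25, edgeR adjusted p 0.019), and lost their calls whenever 1 treated library was left out, and after background subtraction (edgeR adjusted p 0.072 and 0.067). Those fits called 2 to 5 genes of the whole list.

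Guanylate-binding proteins, GTPases that attack the membranes around microbes, were among the gamma targets called. Gbp8 was at 1100 and 854 CPM in control and 390 and 413 CPM in Sox2Hi libraries (-1.28, SE 0.26, edgeR adjusted p 0.011), and Gbp6 at 2400 and 1710 against 857 and 918 CPM (-1.21, SE 0.24, edgeR adjusted p 0.011). Neither overlapped, and both lost the call only without Sox2Hi treated replicate 1 (edgeR adjusted p 0.073 and 0.068). Gbp2b was at 89 and 30.7 against 19.2 and 11.9 CPM (-1.94, SE 0.49, edgeR adjusted p 0.022), with the control libraries far apart. It was -0.98 without control treated replicate 1 (edgeR adjusted p 0.15) and held its call only without control treated replicate 2. Gbp2, the most abundant of them, was at 9270 and 8310 against 4080 and 6700 CPM and was not called (edgeR adjusted p 0.17). Since these genes have close copies, the split of reads between family members is uncertain. B2m, the light chain of class I antigen presentation, was at 11600 and 13300 CPM in control and 6360 and 8270 CPM in Sox2Hi (-0.76, SE 0.22, edgeR adjusted p 0.033), and held its call only without Sox2Hi treated replicate 2 (edgeR adjusted p 0.043). Background subtraction ended the calls of Gbp2b and B2m (edgeR adjusted p 0.066 and 0.12), and so did a block by the labels' description number (edgeR adjusted p 0.071 and 0.094). Without Sox2Hi treated replicate 1, 0 genes of the list were called by edgeR (8 at an unadjusted p under 0.05), and at most 5 in the other such fits. DESeq2 and limma-voom called 23 and 5 of the list lower with all libraries, and 28 and 9 of the interferon-stimulated genes.

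Other interferon genes were not called. Irf7, the amplifier of type I interferon, was at 166 and 93.9 against 91.1 and 87.4 CPM. The T-cell chemokines Cxcl9 and Cxcl10 were at 230 and 320 against 132 and 306 CPM and at 198 and 142 against 103 and 149 CPM. Cxcl9 and Cxcl10 overlapped between grafts and Irf7 barely did not. Mx1 was low, at 8.38 and 8.1 against 6.82 and 7.91 CPM, with 13.5% of its reads expected as background.

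**Figure D3:**
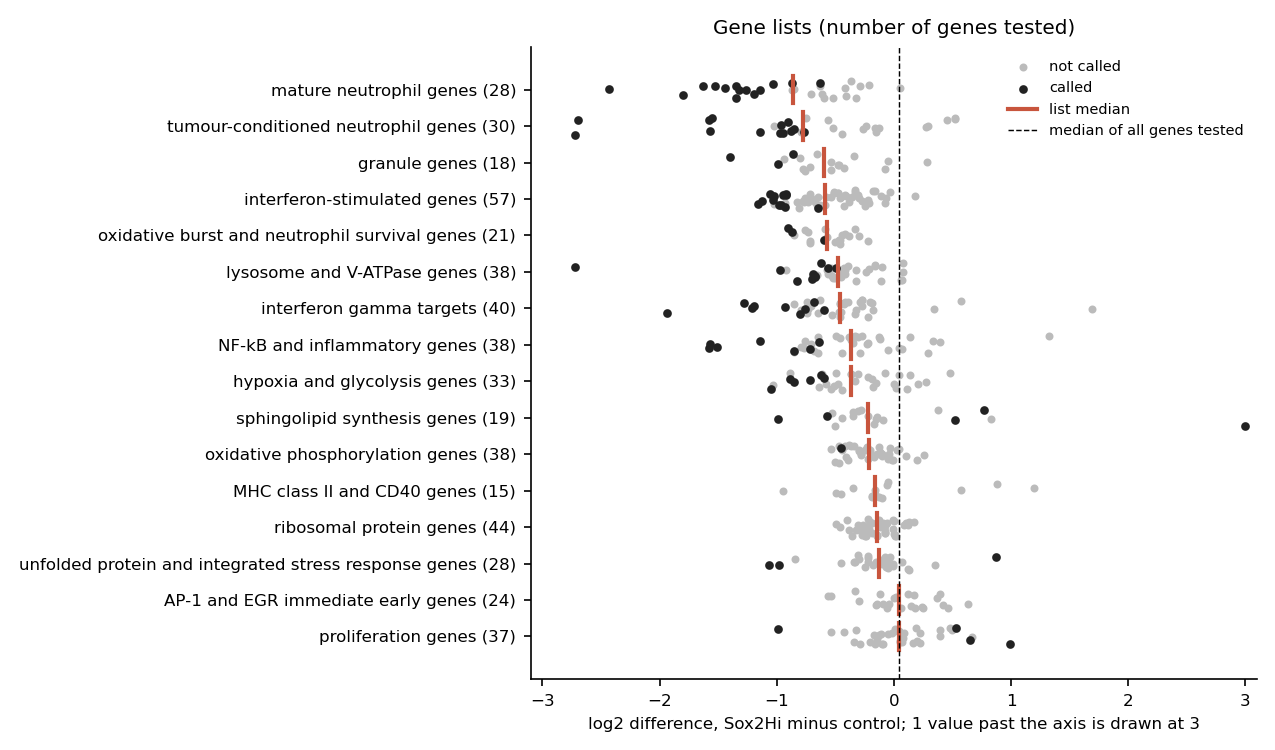
Log2 differences of the tested genes of 16 lists, Sox2Hi minus control in treated tumours; black points were called, red bars are list medians, and the dashed line is the median of all tested genes at 0.04. Mature and tumour-conditioned neutrophil genes lie farthest to the left, at -0.86 and -0.78; Sptssb, at 7.24, is drawn at the right edge.

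Of 38 NF-kB and inflammatory genes, 7 were called lower, with a median of -0.37. Their 18.4% is near the 16.4% of genes of like abundance, so it says little about the list, and 3 were called after background subtraction. Tnf was at 230 and 186 CPM in control and 79.6 and 66.3 CPM in Sox2Hi libraries (-1.51, SE 0.32, edgeR adjusted p 0.012). Its groups were well apart, and the call was kept without either control library and lost without either Sox2Hi library (edgeR adjusted p 0.059 and 0.057). Il1b and Cxcl2 were not called, at 4670 and 3940 against 3800 and 2880 CPM and at 4840 and 5850 against 2900 and 3360 CPM (edgeR adjusted p 0.41 and 0.053). Without Sox2Hi treated replicate 1 0 genes of the list were called by edgeR, and 6 had an unadjusted p under 0.05.

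Of 41 lysosome and V-ATPase genes, 38 were tested and 10 called lower (26.3%, beside 16.3%), with a median of -0.48. Besides Atp6v0d2 they included the pump subunits Atp6v1c1, Atp6v0e, Atp6v1g1, Atp6v1a and Atp6v1d, the cholesterol carrier Npc2, the membrane protein Lamp2, and the glycolipid-cleaving enzyme Gla. Atp6v1c1 was at 386 and 445 CPM in control and 210 and 259 CPM in Sox2Hi libraries (-0.83, SE 0.20, edgeR adjusted p 0.018), and Gla at 891 and 1240 against 427 and 662 CPM (-0.97, SE 0.28, edgeR adjusted p 0.035). Neither overlapped. Both lost the call without control treated replicate 2 (edgeR adjusted p 0.091 and 0.18) and without Sox2Hi treated replicate 1 (edgeR adjusted p 0.14 and 0.25). The cathepsins Ctss and Ctsb were at 3390 and 3310 against 1640 and 2610 CPM and at 1710 and 1140 against 852 and 1130 CPM, and neither was called. The list had 8 calls without Sox2Hi treated replicate 2, 3 without control treated replicate 1 and 1 in each of the other 2 fits. After background subtraction only 1 was called by edgeR, and Gla was not (adjusted p 0.12).

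Of 34 hypoxia and glycolysis genes, 33 were tested and 6 called lower (18.2%, beside 12.4%), with a median of -0.37. Ankrd37, a target of hypoxia-inducible factor, was at 78.2 and 105 CPM in control and 47 and 41.3 CPM in Sox2Hi (-1.05, SE 0.30, edgeR adjusted p 0.035). Ero1l, an oxidase of protein folding, was at 852 and 698 against 362 and 473 CPM (-0.89, SE 0.28, edgeR adjusted p 0.045). Both had separate ranges. Without 1 treated library Ero1l was never called, and Ankrd37 was called without control treated replicate 1 only (edgeR adjusted p 0.049). The list had 2 calls without control treated replicate 1, 3 without Sox2Hi treated replicate 2 and 0 by edgeR in the other 2 fits. After background subtraction 0 of the list were called by edgeR (adjusted p 0.094 for Ankrd37 and 0.12 for Ero1l). Eno1, a glycolytic enzyme, was at 1300 and 1000 against 868 and 966 CPM and was not called, and neither was Bnip3, at 1520 and 1250 against 588 and 770 CPM (edgeR adjusted p 0.24 and 0.088). Of 21 tested genes of the oxidative burst and survival, 3 were called lower (14.3%, beside 15.9%): Casp4 and Casp8, which are death proteases, and Bcl2a1a, a survival protein with near copies. Casp4 was at 516 and 489 against 249 and 301 CPM (-0.87, SE 0.22, edgeR adjusted p 0.021), and without 1 treated library it was called only in the absence of Sox2Hi treated replicate 2 (edgeR adjusted p 0.046). After background subtraction 0 of this list were called by edgeR (adjusted p 0.082 for Casp4 and 0.099 for Bcl2a1a). The oxidase subunit Cyba, at 1790 and 1650 against 843 and 1250 CPM, and the survival gene Mcl1, at 1410 and 1320 against 1050 and 962 CPM, were not.

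Lists of basic cell functions held few calls. Of 44 ribosomal protein genes 0 were called by edgeR, 2 had an unadjusted p under 0.05, limma-voom called 0 and DESeq2 4, and the median was -0.14. Of 38 oxidative phosphorylation genes only Sdhd was called, at 195 and 200 against 134 and 154 CPM (-0.45, SE 0.14, edgeR adjusted p 0.044), and in none of the 4 fits without 1 treated library (edgeR adjusted p 0.065 to 0.28) or after background subtraction (edgeR adjusted p 0.16). Genes of like abundance were called lower in 15.5% and 12%. Of 24 immediate early genes 0 were called by edgeR (beside 14.6% lower and 7.87% higher of genes of like abundance), 2 had an unadjusted p under 0.05, limma-voom called 0 and DESeq2 3. Dusp1, a phosphatase among them, was at 4980 and 2920 against 4800 and 2870 CPM, so the grafts overlapped. MHC class II and CD40 genes gave 0 calls of 15 tested with edgeR, limma-voom and DESeq2, and 1 at an unadjusted p under 0.05, beside 14% lower and 10.9% higher of genes of like abundance. Cd74, the invariant chain, was at 13800 and 15200 CPM in control but 7670 and 18300 CPM in Sox2Hi libraries, farther apart than the grafts. Of 28 stress response genes tested, Ddit3, a transcription factor of the integrated stress response, and Edem1 were called lower and the chaperone Hyou1 higher, 7.14% and 3.57% beside 15.3% and 8.56% of genes of like abundance. Without single treated libraries Edem1 was never called (edgeR adjusted p 0.054 to 0.18, and 0.11 after background subtraction), and Hyou1 only without control treated replicate 1 (edgeR adjusted p 0.037) and not with scaling over 29648 genes (edgeR adjusted p 0.18). Ddit3 was at 287 and 286 CPM in control and 148 and 125 CPM in Sox2Hi (-1.07, SE 0.19, edgeR adjusted p 0.0078), a gap that held without each treated library. Of 37 proliferation genes tested, Mcm5, Rrm1 and Tyms were called higher and Hmgb2 lower, 8.11% and 2.7% beside 15.2% and 4.6% of genes of like abundance. Hmgb2, a chromatin protein, was at 382 and 324 against 173 and 183 CPM (-0.99, SE 0.16, edgeR adjusted p 0.0068), also in every such fit. Mcm5, of the replicative helicase, was at 3.61 and 3.75 against 7.46 and 7.16 CPM, with 20.1% of its reads expected as background. It lost its call without control treated replicate 2 and Sox2Hi treated replicate 1 (edgeR adjusted p 0.060 and 0.075) and with scaling over 29648 genes (0.54, edgeR adjusted p 0.17). That scaling called none of the list higher and 2 lower by edgeR, with Rrm1 at 0.20 and Tyms at 0.08 (adjusted p 0.51 and 0.81). Tyms also lost its call by limma-voom (adjusted p 0.058) and with the edgeR block by description number (adjusted p 0.079).

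Apart from immunoglobulin genes, the largest rise was of Sptssb (ENSMUSG00000043461, chromosome 3, 69819542 to 69859940, minus strand, GRCm38), a small subunit that activates serine palmitoyltransferase, the first enzyme of sphingolipid synthesis. It was at 0.434 and 0.298 CPM in the control libraries, 6 and 5 counts, and at 71.8 and 39.7 CPM in the Sox2Hi libraries. All Sox2Hi values exceeded all control values by far, and the difference was 7.24 (SE 0.64, edgeR adjusted p 0.00073). It ran from 6.75 to 7.61 and stayed called without each treated library. The 6 and 5 control counts were near the 4.59 and 5.08 expected as background, so the size of the fold is not fixed by these data, and it was 10.55 after background subtraction (edgeR adjusted p 0.0027). RefSeq places its start in sequence that holds neither motif above, shown since this gene leads the rises:
Sptssb, chr3:69859895-69859994, minus strand: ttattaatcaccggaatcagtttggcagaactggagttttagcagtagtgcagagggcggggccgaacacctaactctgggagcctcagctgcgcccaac
The rest of the pathway did not follow as a group. Of 24 sphingolipid genes 19 were tested, of which 3 were called higher (Sptssb, Cerk and Cers5) and 2 lower, with a median of -0.22. Those are 15.8% and 10.5% of the list, beside 10% and 8.79% of genes of like abundance, and after background subtraction 2 were called higher and 0 lower by edgeR. Scaling over 29648 genes called only 1 of 24 higher and 9 lower, with Cerk at 0.32 and Cers5 at 0.07 (edgeR adjusted p 0.28 and 0.85). Cers5 also lost its call by limma-voom (adjusted p 0.054) and with the edgeR block by description number (adjusted p 0.073). Cerk, ceramide kinase, was at 3.97 and 3.93 against 6.31 and 7.16 CPM, with 25% of its reads expected as background. Sgms2, a sphingomyelin synthase, was at 2840 and 2720 CPM in control and 1230 and 1570 CPM in Sox2Hi (-0.99, SE 0.24, edgeR adjusted p 0.018), and Degs1, a ceramide desaturase, at 286 and 392 against 224 and 233 CPM (-0.57, edgeR adjusted p 0.047). Sgms2 kept its call only without Sox2Hi treated replicate 2 (edgeR adjusted p 0.040; 0.069 after background subtraction), Degs1 only without control treated replicate 1 (edgeR adjusted p 0.037) and Cerk in none of these fits (edgeR adjusted p 0.080 to 0.12).

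Among the other genes named for large rises were Tspan1, Aqp5, Clu and Lars2. Tspan1, a membrane tetraspanin, was at 1.01 and 3.81 CPM in control and 18.6 and 25 CPM in Sox2Hi libraries. Aqp5, a water channel of glands, was at 3.61 and 7.33 against 35.1 and 21.2 CPM, and Clu, the secreted chaperone clusterin, at 3.32 and 8.58 against 26 and 35.3 CPM. The grafts were apart in each, and the differences of 3.14 (SE 0.53, edgeR adjusted p 0.0071), 2.35 (SE 0.40, edgeR adjusted p 0.0069) and 2.35 (SE 0.38, edgeR adjusted p 0.0068) held without each treated library. Lars2, the leucyl-tRNA synthetase of mitochondria, was at 97 and 54.4 against 404 and 280 CPM (2.17, SE 0.31, edgeR adjusted p 0.0065) and held likewise.

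Several other rises lost their call when 1 library was left out. Ptn, the growth factor pleiotrophin, was at 6.86 and 1.85 CPM in control and 20.8 and 83.8 CPM in Sox2Hi (3.61, SE 0.81, edgeR adjusted p 0.015). It lost its call without Sox2Hi treated replicate 2 (2.28, edgeR adjusted p 0.070) and without control treated replicate 2 (2.93, edgeR adjusted p 0.087). Prlr, the prolactin receptor, was at 6.43 and 3.34 against 8.29 and 73 CPM, and its difference went from 3.06 to 0.77 without the high library, Sox2Hi treated replicate 2 (edgeR adjusted p 0.18). It held its call without Sox2Hi treated replicate 1 only, and lost it after background subtraction (edgeR adjusted p 0.067). Clca3a2, a secreted channel regulator, was at 2.60 and 0.715 against 12.4 and 33.2 CPM (3.81, SE 0.81, edgeR adjusted p 0.012), and missed the threshold without control treated replicate 2 (3.13, edgeR adjusted p 0.080). The epithelial genes Slurp1, Wfdc2 and Krt19 were at 4.05 and 17.5 against 73.6 and 35.5 CPM, at 2.38 and 5.48 against 26.6 and 13.4 CPM, and at 4.19 and 20.9 against 70.6 and 42 CPM. Without Sox2Hi treated replicate 1 none of these was called (edgeR adjusted p 0.15, 0.059 and 0.14), though their differences were still 1.71, 1.76 and 1.73. The block by description number ended the calls of Ptn, Slurp1, Krt19 and Tspan7 (edgeR adjusted p 0.060, 0.063, 0.051 and 0.092), and scaling over 29648 genes those of Slurp1, Krt19 and Tspan7 (edgeR adjusted p 0.064, 0.065 and 0.058). Slurp1 was also not called without control treated replicate 1 (1.65, edgeR adjusted p 0.071). Tspan7, another tetraspanin, was at 8.67 and 4.35 against 29.2 and 26.7 CPM, with both Sox2Hi libraries well above control. Its difference was between 1.69 and 2.68 without single treated libraries, but it kept its call only without control treated replicate 1 (edgeR adjusted p 0.041).

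Some markers of other cell types were also called higher. The 20 keratinocyte markers took 0.186% and 0.111% of counts in control and 0.344% and 0.204% in Sox2Hi treated libraries. As a list they had no common direction: the median of the 19 tested was 0.02, 8 were below 0 with the lowest at -1.64, and leaving out single treated libraries moved the median between -0.38 (without Sox2Hi treated replicate 1) and 0.77 (without control treated replicate 1). Of the 19, 4 were called higher (21.1%, beside 9.59% of all genes of like abundance), all of simple epithelium or adhesion: Krt8, Krt18, Epcam and Cdh1. Without control treated replicate 2 and without Sox2Hi treated replicate 1 the list had 1 call each. Scaling over 29648 genes also called 1, and not Krt8 (0.84, edgeR adjusted p 0.067), Epcam (0.43, 0.31) or Cdh1 (0.80, 0.11), and the block by description number ended the call of Cdh1 (edgeR adjusted p 0.064). Krt18 was at 314 and 315 CPM in control and 856 and 774 CPM in Sox2Hi (1.37, SE 0.22, edgeR adjusted p 0.0068), and held without each treated library. The basal keratins Krt5 and Krt14 overlapped, at 133 and 59.1 against 112 and 80.3 CPM and at 434 and 184 against 332 and 195 CPM. The 14 fibroblast markers took 0.0163% and 0.0143% in control and 0.068% and 0.0199% in Sox2Hi. All 12 tested were above 0, with a median of 1.12, or 0.31 without Sox2Hi treated replicate 1. Col3a1 and Cthrc1 were called (16.7%, beside 13.8% of genes of like abundance). Col3a1 was at 9.46 and 15 against 67.4 and 19.8 CPM, and without Sox2Hi treated replicate 1 its difference dropped from 1.83 to 0.69 (edgeR adjusted p 0.44). Of 3 mast cell markers tested 2 were called higher (66.7%, beside 13.1% of genes of like abundance), the proteases Cma1 and Tpsb2. They were at 16.4 and 6.55 CPM and at 15.7 and 4.3 CPM in Sox2Hi, against at most 2.38 CPM in control. Both kept the call only without Sox2Hi treated replicate 2 (edgeR adjusted p 0.049 and 0.035). After background subtraction the 4 keratinocyte genes were called, while Col3a1, Cthrc1, Cma1 and Tpsb2 were not (edgeR adjusted p 0.056 to 0.089). The 16 macrophage markers took 0.189% and 0.138% against 0.127% and 0.201%, which overlapped, and of 14 tested only Ly6c2, a monocyte surface protein, was called, lower at 498 and 357 against 131 and 189 CPM, and not without control treated replicate 1 or Sox2Hi treated replicate 1 (edgeR adjusted p 0.074 and 0.13) or after background subtraction (edgeR adjusted p 0.055). Of the macrophage list 7.14% was called lower, beside 10.5% of genes of like abundance. Dendritic cell, T and NK cell, eosinophil and erythroid markers gave 0 edgeR calls of 5, 10, 3 and 4 tested, with 1, 0, 2 and 3 at an unadjusted p under 0.05, 0 by limma-voom in each, and 0, 0, 1 and 1 by DESeq2. Genes of like abundance were called lower in 2.78%, 3.69%, 3.39% and 12.4% and higher in 19.1%, 16.6%, 17.4% and 8.59%. With so few genes tested, 0 calls say little. Endothelial markers gave 1 of 3, Vwf, with 55.4% of its reads expected as background, and plasma cell markers 1 of 12, Igha, at 77.2 and 1.5 CPM in the Sox2Hi libraries. Those are 33.3% and 8.33% called higher, beside 17.4% and 10.9% of genes of like abundance. Scaling over 29648 genes did not call Vwf (0.51, edgeR adjusted p 0.13). No marker of any list was at 0 in all 4 treated libraries. The part of these cells in the results above was not tested. Sox2 itself was at 0.217 and 0.715 CPM in control and 1.02 and 1.09 CPM in Sox2Hi libraries, below the level tested and with 73.9% of its reads expected as background.

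**Figure D4:**
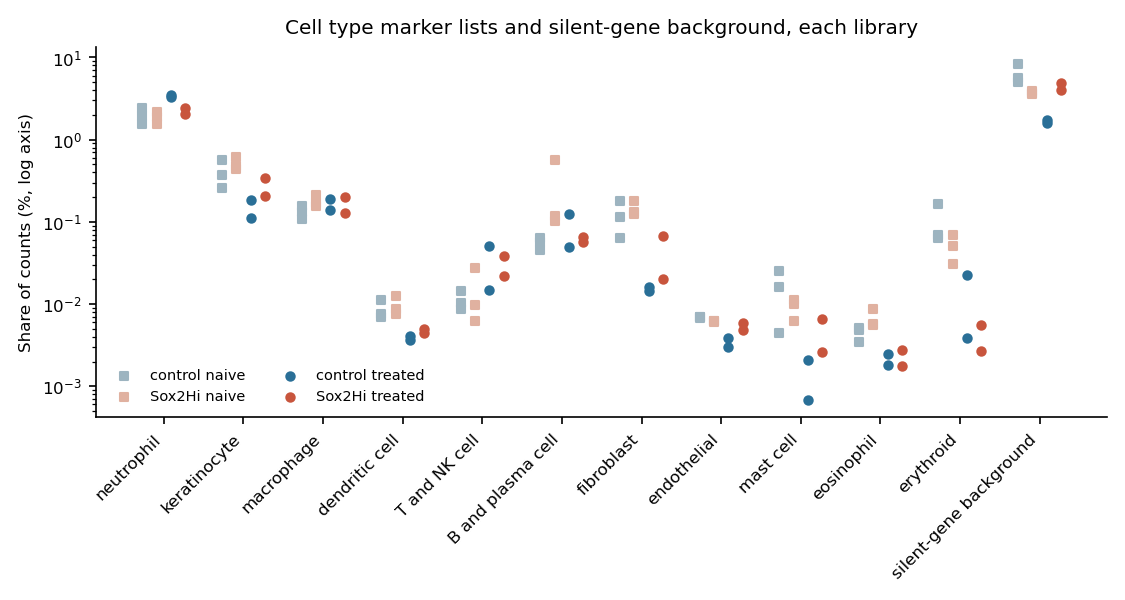
Share of counts (percent, log axis) held by each cell type marker list and by the expected background from silent genes, 1 point a library; squares are naive and circles treated, blue control and red Sox2Hi. Neutrophil markers are highest in control treated libraries (3.50% and 3.31%), keratinocyte markers higher in Sox2Hi than control treated libraries, and the background lowest in control treated libraries (1.74% and 1.58%).

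The same graft comparison in naive tumours shares no library with the treated comparison, though both draw their spread from 1 fit. It called 1576 of 11274 genes (14%), 237 higher (2.1%) and 1339 lower (11.9%). The expected background ran the other way here, at 5.68%, 8.37% and 5.02% of counts in control and 3.92%, 3.63% and 3.74% in Sox2Hi naive libraries, and with it subtracted 929 genes were called. Among the 5596 genes with low background that are neither predicted nor receptor genes, 184 were called higher and 93 lower in naive Sox2Hi tumours. Of all 1576 naive calls, 1036 were also called in treated tumours, 44.0% of the treated and 65.7% of the naive calls, and 72 of them had the same direction, 53 higher and 19 lower in both. Most of those in opposite directions were predicted, receptor or high-background genes. Among the 5596 others, 31 were higher in both, 11 lower in both and 42 opposite. Naive calls hung on single libraries more: without Sox2Hi naive replicate 3 there were 4. The graft by treatment interaction, which tests whether the graft difference changed with treatment, called 2228 genes (19.8%). Among genes lower in treated Sox2Hi tumours, 200 of 662 (30.2%) had an interaction call below 0, and among those higher 1376 of 1691 (81.4%) had one above 0. In those 5596 genes, 165 of 533 and 61 of 178 did.

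Interferon-stimulated genes had a median of -0.42 in naive tumours with 8 of 57 called lower, and gamma targets -0.38 with 5 of 40. Over all tested genes 11.9% were called lower, but most of those were predicted, receptor or high-background genes. Among the 5596 others 93 were called lower, a smaller share than in either list. For neither list was an interaction called for any tested gene (0 of 57 and 0 of 40 by edgeR). At an unadjusted p under 0.05 there were 2 and 3 interactions, by limma-voom 0 and 1, and by DESeq2 3 and 6, and the interaction medians were -0.27 and -0.20. Ifit3 was at 229, 298 and 187 CPM in control naive and 192, 142 and 90.2 CPM in Sox2Hi naive libraries, a difference of -0.75 that was not called. Cxcl9 was called lower in naive tumours, at 67.3, 106 and 103 against 42.6, 46.5 and 32.9 CPM (-1.18, edgeR adjusted p 0.026), and was not called in treated ones. The interaction for it, 0.85, did not pass (edgeR adjusted p 0.24). For the mature neutrophil list the naive median was -0.23 with 0 called by edgeR (1 at an unadjusted p under 0.05, 14 by limma-voom and 0 by DESeq2), and 1 gene, Fpr1, had an interaction call (edgeR adjusted p 0.019). For tumour-conditioned genes the naive median was 0.08 and 7 of 30 had an interaction call below 0. Hypoxia and glycolysis genes had 11 of 33 and lysosome genes 6 of 38. Over all genes tested the share was 2.84%, which is not weighted for abundance. Their naive medians were 0.30, with 4 called higher, and 0.12, with 1 called higher. Eno1 was among the naive rises (0.59, edgeR adjusted p 0.029).

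Car4 was at 8.30, 3.15 and 4.35 CPM in control naive and 13.2, 7.72 and 5.87 CPM in Sox2Hi naive libraries, ranges that overlapped. Its interaction was -3.46 (edgeR adjusted p 0.0025). Atp6v0d2 overlapped as well in naive tumours, at 8.9, 4.62 and 10.2 against 9.69, 4.8 and 4.2 CPM, with an interaction of -2.37 (edgeR adjusted p 0.016). For both, the control treated libraries were the ones that stood out, above every other library of the series. Sptssb was already higher in naive Sox2Hi tumours, at 44, 27 and 40.8 CPM against 5.33, 1.61 and 2.56 CPM in control (3.55, edgeR adjusted p 0.0092). Its interaction of 3.70 (edgeR adjusted p 0.0049) goes with control libraries that were lower still when treated. The treated control counts, 6 and 5, were near the 4.59 and 5.08 expected as background, so the size of the interaction is not fixed by these data. Clu was higher in naive Sox2Hi tumours too, at 105, 104 and 105 against 7.33, 10.9 and 12.9 CPM (3.33, edgeR adjusted p 0.0048), and so were Tspan1, Aqp5, Slurp1, Krt19, Krt8 and Krt18. Keratinocyte markers overlapped between the naive grafts as a share of counts, at 0.367%, 0.26% and 0.559% against 0.475%, 0.438% and 0.619%. Prl2c2 was lower in both settings, at 69.8, 37 and 52.8 against 15.5, 14.7 and 25 CPM when naive (-1.53, edgeR adjusted p 0.014).

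**Figure D5:**
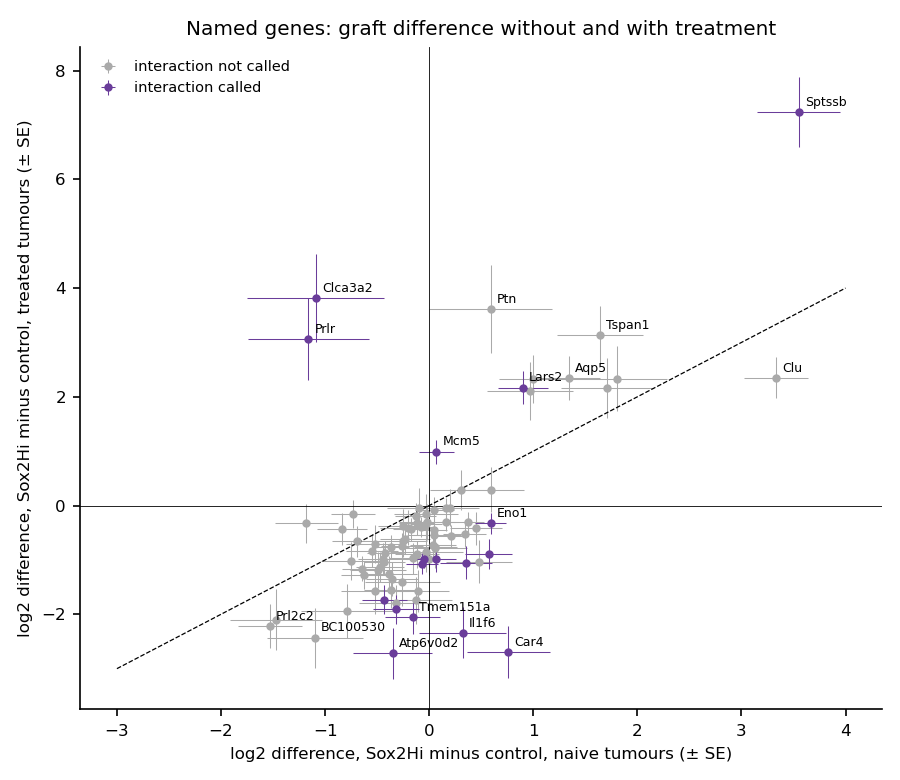
Graft difference (log2, Sox2Hi minus control, ± SE) of the named genes in naive tumours (horizontal) and treated tumours (vertical); purple points had an interaction call and the dashed line marks equal differences. Car4 lies at 0.76 across and -2.70 down, and Atp6v0d2 at -0.35 and -2.72; Sptssb is far up on both axes, and Clca3a2 and Prlr are above 0 only in treated tumours.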

How the data were processed

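Neutrophil RNA was measured by bulk RNA-seq in 10 libraries, made with a low-input kit per the labels' protocols. The authors deposited a table of estimated counts per gene, made with kallisto 0.44.0 on mm10 per the submitters' processing notes; strand use and annotation are not given in the sources used here. All values are whole numbers, and the 4 values of 7 or more digits end in 0, so they may be rounded. Columns were matched by the labels' descriptions. Of 55481 entries, 55385 are Ensembl genes; 92 ERCC and 4 transgene entries (at most 0.00277% of a library's entries) stayed out of library sizes and tests. Gene names and positions were taken from GENCODE release M21 on GRCm38, in which 55144 were found. Promoter sequence came from RefSeq (GRCm38.p6).

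Counts were fitted with edgeR 4.0.16 (R 4.3.3), quasi-likelihood, 4 groups, 6 residual degrees of freedom, over the 11274 genes whose mean CPM reached 5, with TMM factors from those genes. The common biological coefficient of variation was 0.212. SE is the log2 difference over the square root of F. The expected background of a gene is the median count per kb over 1464 receptor genes times its exon length.

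Genes named are the 12 largest rises and 12 largest falls among called genes with at least 10 CPM over the treated libraries and no overlap, without predicted, immunoglobulin or T-cell receptor genes; 2 genes by level and up to 2 by change in each list; and a fixed set of genes. Others named for a count or as list members were picked after their values were seen, and some are not reported here. Shares over genes of like abundance weight 5 classes of mean CPM. The members and lists were chosen with earlier results of these data known. Alternatives were DESeq2 1.42.0, limma-voom (limma 3.58.1), RLE factors, library totals, other filters, scaling over 29648 genes, background subtraction, a Ddx3y covariate, treated libraries alone, replicate blocks, each library left out, and, added after seeing the data, other TMM reference libraries. Replicates differed beyond sampling noise (chi-square per degree of freedom at least 12.5), so none was counted as a repeat.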

Additional observations from a re-analysis of the deposited data

Results flagged for a closer look

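Of 87 named genes tested, 17 had a graft difference that differed between treated and naive tumours by the interaction test of the 10-library edgeR fit, 12 below 0 and 5 above. The values are log2 interactions, treated graft difference minus naive graft difference. Below 0 were Car4 (-3.46), Il1f6 (-2.66), Atp6v0d2 (-2.37), Tmem151a (-1.89), Irf2bpl (-1.59), Ero1l (-1.46), Ankrd37 (-1.40), Tgm4 (-1.31), Sgms2 (-1.06), Ddit3 (-1.0), Hmgb2 (-0.94) and Eno1 (-0.92). Above 0 were Mcm5 (0.92), Lars2 (1.27), Sptssb (3.70), Prlr (4.22) and Clca3a2 (4.90). Over all tested genes 19.8% had an interaction call, 16.9% above 0 and 2.84% below. Prlr and Clca3a2 had control libraries at or below 14.3 CPM in both settings, and the Prlr value rests on 1 Sox2Hi treated library. The size of the Sptssb value rests on control treated counts near the expected background.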

How the results depend on the processing

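With 2 libraries a graft, the counts of calls depended on the settings. Genes called in treated tumours were 4076 with scaling over all genes, 5213 at a mean of 1 CPM, 798 at 20 CPM, 4319 with no filter, 814 in the 4 treated libraries alone and 960 after background subtraction. Higher calls were 994 (RLE factors), 2761 (library totals), 4422 (1 CPM), 372 (20 CPM), 3760 (no filter), 651 (treated alone) and 816 (subtraction). Lower calls were 2836 (all genes), 1304 (RLE), 192 (totals), 426 (20 CPM), 1823 (DESeq2), 439 (limma-voom), 163 (treated alone), 144 (subtraction) and 1140 (TMM reference control naive replicate 1). With that reference the higher calls were 1331, and DESeq2 gave 1318 higher. Naive calls were 554 (all genes), 1016 (totals), 3983 (1 CPM), 391 (20 CPM), 3027 (no filter), 4129 (limma-voom), 929 (subtraction) and 1010 (TMM reference control treated replicate 1). Interaction calls were 8149 (all genes), 8187 (1 CPM), 471 (20 CPM), 10690 (no filter), 3355 (DESeq2) and 1106 (subtraction). Leaving out each library gave 465 to 2834 treated calls, 348 to 1970 higher, 44 to 864 lower, 4 to 1997 naive and 1542 to 2418 interaction calls. The cause was not tested, beyond fewer genes or libraries where a setting has them.

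Title numbers did not pair the treated libraries, whose same-numbered deviations correlated at -0.0952, though those of the naive pairs did at 0.273, 0.325 and 0.474. With a replicate block by title number 3173 genes were called, 2065 higher and 1108 lower, and with a block by description number 1739, 1316 higher and 423 lower. That second block ended the calls of 10 of 48 named genes: Ptn, Slurp1, Krt19, Tspan7, Gbp2b, B2m, Slpi (edgeR adjusted p 0.056), Sdhd (0.078), Gla (0.076) and Bcl2a1a (0.072). The block by title ended 0, scaling over all genes 4, library totals 9, limma-voom 14, and the treated libraries alone 17. With list members included, the block by description number ended 36 of 116 calls. Among them were Trem1 (edgeR adjusted p 0.071), Hilpda (0.073), Col3a1 (0.14), Cthrc1 (0.12), Tpsb2 (0.073), Npc2 (0.058), Lamp2 (0.087) and Casp8 (0.091).

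Of 2169 values of single genes under alternatives, 1864 kept their direction and side of the threshold, 198 lost and 80 gained a call, and 27 changed sign, all in genes not called: Anxa1 (-0.18 over all genes, -0.06 to 0.73 with 1 library left out), Cox4i1 (0.25 with totals, 0.10 subtracted, 0.11 without control treated replicate 2, 0.06 without Sox2Hi treated replicate 1), Rpl35 (0.11 with totals), Rplp0 (0.23 with totals, 0.07 subtracted, -0.27 to 0.14 with 1 left out), Dusp1 (0.29 with totals, 0.10 subtracted, 0.00 with a Ddx3y covariate, -0.46 to 0.39 with 1 left out), Cd74 (0.09 with totals, 0.05 with the block by description, -0.92 to 0.34 with 1 left out), H2-Ab1 (0.19 with totals, 0.08 subtracted, 0.15 with that block, -0.91 to 0.48 with 1 left out), Mx1 (0.13 with totals), Cxcl9 (-1.06 to 0.15 with 1 left out), Csf3r (-0.75 to 0.00 with 1 left out) and Siglecf (-0.17 over all genes, -0.08 to 0.60 with 1 left out). Library totals, which put the median of tested genes at 0.34, turned the medians of the oxidative phosphorylation, ribosomal, stress response, sphingolipid and MHC class II lists above 0.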

Other observations

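Apart from predicted and receptor genes, 21 genes called lower in treated Sox2Hi tumours with an expected background under 10% of their reads kept that call without each treated library. Beside those described above they include Il12a, a subunit of interleukin 12, at 70.9 and 78.2 CPM in control and 22.4 and 37.3 CPM in Sox2Hi libraries (-1.32, SE 0.23, edgeR adjusted p 0.0080). Brd7, a bromodomain protein of a chromatin remodeller, was at 202 and 270 against 79.3 and 91 CPM (-1.47, SE 0.18, edgeR adjusted p 0.0045). Hmgn2, a nucleosome-binding protein, was at 1480 and 1580 against 733 and 842 CPM (-0.96, SE 0.16, edgeR adjusted p 0.0071), and Ncoa4, the receptor that sends ferritin to the lysosome, at 177 and 220 against 84.2 and 97.5 CPM (-1.13, SE 0.17, edgeR adjusted p 0.0065). Also among them were Tinagl1, a matrix protein, at 119 and 168 against 42.5 and 56.3 CPM, and Lamc1, a laminin chain, at 59.0 and 69.7 against 22 and 24 CPM. All of these groups were apart. They were picked after their values were seen. Of the 18 such genes called higher, 8 had naive differences below 0, from -1.04 to -0.75, with interaction calls (edgeR adjusted p up to 0.0009). The 265 receptor genes taken as silent had medians of -0.90 in naive and 1.04 in treated tumours. Among the other 10, Kcnk1, a potassium channel, was at 2.53 and 2.92 against 17.6 and 10.1 CPM (2.34, SE 0.40, edgeR adjusted p 0.0071), and Tmprss11e, an epithelial serine protease, at 13.4 and 21.1 against 60 and 61.7 CPM (1.82, SE 0.24, edgeR adjusted p 0.0058).

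Immunoglobulin genes gave the widest spread. Of 35 tested, 4 were called higher and 3 lower, beside 15.0% and 5.87% of all tested genes. Their median SE was 2.51 on the log2 scale against 0.24 over all tested genes. Igha was at 0.578 and 1.19 CPM in control and 77.2 and 1.5 CPM in Sox2Hi libraries, and without Sox2Hi treated replicate 1 its difference dropped from 5.44 to 0.73 (edgeR adjusted p 0.68).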
